A study of Mus musculus with 48 samples.

Results

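The 10 genes described here encode interleukin-1 (IL-1) family ligands and receptors: the ligands Il1a, Il1b, Il18 and Il33, the soluble antagonists Il1rn and Il18bp, and the receptor genes Il1r1, Il1r2, Il1rap and Il1rl1. They were taken by symbol from the 36854 genes of the deposited count table, and each matched 1 row. The set was selected on the measured level of Il1rn, which was far higher in primary tumours after 20 Gy than without radiation. For that reason the values of primary tumours at 20 Gy against 0 Gy, the contrast of that difference between tumour kinds, and the level of Il1rn in 0 Gy isotype primary tumours against allografts or between antibodies in primary tumours are given as descriptions and support nothing.

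The study measured poly(A)-selected RNA in 48 sarcomas of 129/SvJae mice. The 32 primary tumours arose in p53FL/FL mice aged 6 to 10 weeks at induction, in which Adeno-Cre, an adenovirus that delivers Cre recombinase, was injected into the gastrocnemius muscle and was followed by 300 µg of the carcinogen MCA. The 16 allografts grew from 50000 cells of 1 p53/MCA sarcoma line, 402230, placed with matrigel in the gastrocnemius of syngeneic mice, so they share 1 cell line, whereas each primary tumour arose in its own mouse. The age of the allograft hosts is not given in the sources used here. At about 150 mm3, mice were given 200 µg of an isotype control antibody or of muDX400, a murine antibody that blocks the T cell checkpoint receptor PD-1, and then at once 0 or 20 Gy to the tumour-bearing hind limb. Tumours were taken 3 days later. Each tumour kind thus has a 0 Gy isotype, a 0 Gy anti-PD-1, a 20 Gy isotype and a 20 Gy anti-PD-1 group, with 4 tumours per group among allografts and 8 among primary tumours. The controls also carried the p53/MCA lesion and received an antibody. The 48 tumours carry 48 different identifiers in the labels.

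Libraries held 31810461 to 54008259 counts. Levels are in CPM, the usual count-per-depth unit, with the depth scaled by edgeR's TMM factors. Trp53, the gene that Cre was meant to inactivate in the primary tumours, was at 20.15 to 60.65 CPM over the 48 tumours, but counts over the whole gene in tissue that also holds host cells do not check the deletion. Mesenchymal marker transcripts summed to 8326 CPM or more in each tumour, and a list of 9 keratinocyte markers to 20.2 CPM or less. Muscle transcripts varied widely: 12 skeletal muscle markers summed to between 16.6 and 93617 CPM, with the highest sums in replicate 4 of the 20 Gy anti-PD-1 primary tumours (93617 CPM) and replicate 4 of the 20 Gy isotype primary tumours (52680 CPM). Xist, which is transcribed in female cells, exceeded 10 CPM in 1 of 4 tumours of each allograft group at 0 Gy and in 3 of 4 tumours of each at 20 Gy. Xist was thus unevenly spread over dose in the allografts.

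IL-1α and IL-1β, the products of Il1a and Il1b, bind the receptor encoded by Il1r1, which then recruits the accessory protein encoded by Il1rap and signals through MyD88 and NF-κB. Il1rn encodes the IL-1 receptor antagonist, which occupies the same receptor without recruiting the accessory protein, and Il1r2 encodes a decoy receptor that binds IL-1 but lacks a signalling domain. IL-18 is held in check by the secreted IL-18-binding protein (Il18bp), whose gene is a known target of interferon-γ. IL-33, an alarmin kept in the nucleus of stromal and epithelial cells, signals through ST2, the product of Il1rl1, together with the same accessory protein. IL-1β and IL-18 are made as precursors that caspase-1 cleaves in inflammasomes, so transcript levels do not report the active cytokine.

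In GRCm38 coordinates, Il1rn spans chr2:24336853-24351494 on the plus strand, and Il1a (chr2:129299610-129309972) and Il1b (chr2:129364570-129371139) lie further along the same chromosome on the minus strand. Il1r2 (chr1:40074079-40125231), Il1r1 (chr1:40225080-40317257) and Il1rl1 (chr1:40429570-40465415) stand in a row on the plus strand of chromosome 1. Il1rap lies at chr16:26581704-26730117 (plus), Il18 at chr9:50554827-50581840 (plus), Il18bp at chr7:102014885-102018690 (minus) and Il33 at chr19:29925114-29960718 (plus). Whether reads were counted by strand is not given in the sources used here, so the values of Il1a, Il1b and Il18bp, which overlap Gm14023, Il1bos and Numa1 on the other strand, and of Il18, which overlaps Bco2 and Tex12, are uncertain to the extent that such reads were shared. Il1r2 and Il1rap also have antisense neighbours (Gm16894 and Gm20319). Il1r2 and Il1r1 overlap Gm37347 and Gm38070 on their own strand, which counting by strand would not separate.

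The start-site windows of the 3 genes called higher in irradiated isotype allografts are shown as a description, since counts per gene do not measure promoters. Each is 300 bases of RefSeq's GRCm38.p6 sequence, from 250 before to 50 after the start, read 5′ to 3′ on the gene's strand, with motif matches in capitals. Il1rn has 3 such windows, since its secreted and intracellular forms begin at different first exons, and the gene's counts do not separate them. The upstream and one downstream window are given (chr2:24336610-24336909 and chr2:24345041-24345340), followed by Il1a (chr2:129309923-129310222) and Il18bp (chr7:102018183-102018482).
Il1rn upstream start: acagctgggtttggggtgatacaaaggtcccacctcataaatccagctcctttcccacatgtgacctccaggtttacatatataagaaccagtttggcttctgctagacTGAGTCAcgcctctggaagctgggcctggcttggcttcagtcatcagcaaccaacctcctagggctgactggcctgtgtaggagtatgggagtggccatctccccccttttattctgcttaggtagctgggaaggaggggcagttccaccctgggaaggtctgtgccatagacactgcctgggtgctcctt
Il1rn downstream start: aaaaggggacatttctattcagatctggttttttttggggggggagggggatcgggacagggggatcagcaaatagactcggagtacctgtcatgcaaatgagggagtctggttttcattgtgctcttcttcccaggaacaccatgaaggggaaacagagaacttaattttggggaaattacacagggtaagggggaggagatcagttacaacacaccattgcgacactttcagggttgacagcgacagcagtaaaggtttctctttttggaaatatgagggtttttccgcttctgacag
Il1a: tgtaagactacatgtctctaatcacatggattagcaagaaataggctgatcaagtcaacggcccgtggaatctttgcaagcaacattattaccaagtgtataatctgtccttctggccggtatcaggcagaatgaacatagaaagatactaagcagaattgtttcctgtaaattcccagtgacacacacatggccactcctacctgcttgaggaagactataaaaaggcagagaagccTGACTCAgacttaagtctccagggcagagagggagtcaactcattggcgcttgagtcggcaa
Il18bp: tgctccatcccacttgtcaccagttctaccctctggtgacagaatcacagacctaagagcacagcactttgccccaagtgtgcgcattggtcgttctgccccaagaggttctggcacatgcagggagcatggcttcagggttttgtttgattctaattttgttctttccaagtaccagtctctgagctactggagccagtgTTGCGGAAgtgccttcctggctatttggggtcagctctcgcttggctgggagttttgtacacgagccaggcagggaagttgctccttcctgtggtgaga
On both strands, 5 motifs were searched: AP-1 (TGANTCA), CEBP (TTGCNNAA), GAS (TTCNNNGAA), an ISRE-like motif (GAAANNGAA) and a κB-like motif (GGGNNTTCC). AP-1 letters stand in the upstream Il1rn window, and begin 12 bases before the start in that of Il1a, and CEBP letters begin 49 bases before the Il18bp start. The downstream Il1rn window holds no match to these letters, nor does that of Il1b. Of 32851 promoter windows of the same length in RefSeq's table, 7.81% hold the AP-1 letters, 10.8% the CEBP letters, 8.30% the GAS letters, 8.56% the ISRE-like letters and 5.82% the κB-like letters, and no window of the 10 genes held more than 1 match. A match is a description of letters and not a binding site.

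Compared per kilobase of exon, Il1rl1 was the most abundant of the 10 transcripts in each of the 8 groups, and Il1a the least abundant. The median level of Il1rl1 was between 76.4 CPM per kb in 0 Gy anti-PD-1 primary tumours and 206.2 CPM per kb in 20 Gy isotype allografts, above at least 97.1% of the 19313 genes compared. Il1a was between 0.0507 and 0.903 CPM per kb. Il1b was second in each allograft group (27.6 to 72.8 CPM per kb) but gave this place to Il33 in 3 of the 4 primary groups. Il1rn ranked 8 of 10 in 0 Gy isotype allografts (5.96 CPM per kb) and 9 of 10 in 0 Gy isotype primary tumours (1.275 CPM per kb), but 4 of 10 in the 20 Gy isotype and 20 Gy anti-PD-1 allografts (19.25 and 28.7 CPM per kb) and in the 0 Gy anti-PD-1 allografts (11.4 CPM per kb).

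**Figure D1:**
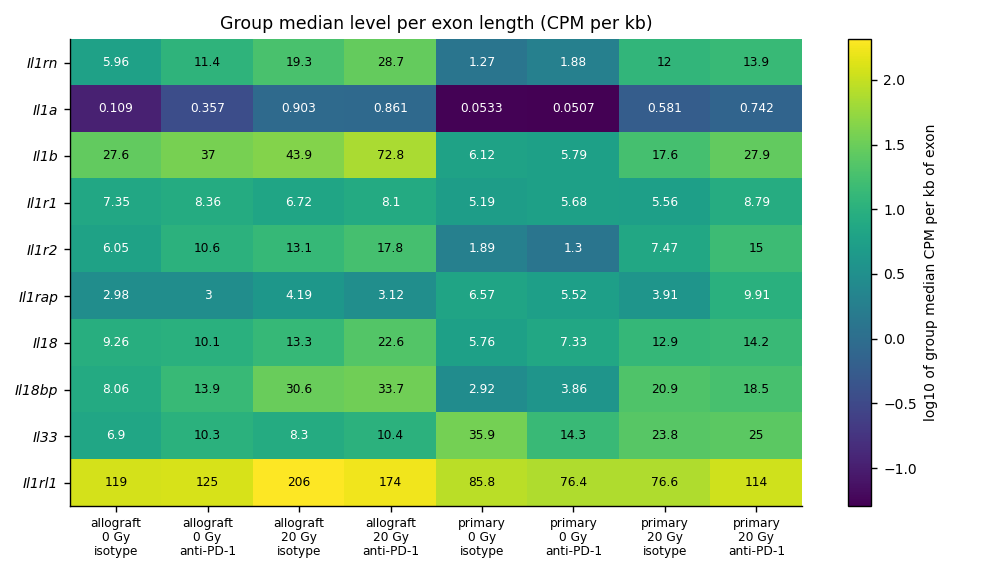
Median level of each of the 10 genes in each of the 8 groups, in CPM per kb of exon, printed in each cell and coloured on a log10 scale. Il1rl1 is the brightest line throughout (76.4 to 206.2 CPM per kb) and Il1a the darkest (0.0507 to 0.903 CPM per kb).

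In allografts given the isotype antibody, 20 Gy was followed by higher Il1rn, Il1a and Il18bp, that is, by the transcripts of the IL-1 receptor antagonist, of one IL-1 agonist and of the IL-18-binding protein. These 3 of 10 genes passed edgeR's quasi-likelihood test with Benjamini-Hochberg adjustment over the 17746 genes tested, of which 5.14% were called in either direction, 4.4% higher and 0.744% lower; 0 of the 10 were lower. All 10 passed the filter on low counts, Il1a with 5 to 18 counts in the 0 Gy isotype tumours, and without Il1a the count is 2 of 9. The identifier's first digit was 5 in 4 of 4 tumours at 0 Gy and 1 of 4 at 20 Gy, and with it as a covariate, where 1.1% of all genes were called, the 3 calls were lost while the log2 fold changes were 1.72 (SE 0.51, adjusted p = 0.126) for Il1rn, 2.80 (SE 1.07, adjusted p = 0.237) for Il1a and 2.07 (SE 0.54, adjusted p = 0.0859) for Il18bp, so dose and identifier digit cannot be fully told apart here. With Xist as a covariate, which was also uneven over dose, 2 calls were lost. These were Il1rn (log2 fold change 1.64, SE 0.44, adjusted p = 0.0617) and Il1a (3.43, SE 0.99, adjusted p = 0.0824). The median log2 fold change of the 10 was 0.84, against -0.002 over all genes tested. With the anti-PD-1 antibody in both arms, the 10 genes had a median log2 fold change of 0.96 (0.017 over all genes) and 0 of 10 passed edgeR's test, against 3.96% of all genes (3.13% higher and 0.828% lower), although 4 had an unadjusted p below 0.05 (19.5% of all genes) and DESeq2 called 3 (Il1rn, Il18 and Il18bp; 9.38% of all genes). Against the same 0 Gy isotype tumours, the combination of 20 Gy and anti-PD-1 called 4 of 10 higher and 0 lower (Il1rn, Il18bp, Il1a and Il18), or 3 of 9 without Il1a, against 9.66% of all genes in either direction, 7.43% higher and 2.23% lower. The isotype and the combination comparison share their control tumours, so their values stand side by side and are not separate evidence. The difference between the 2 antibody arms in their response to dose was itself tested, and 0 of 10 genes differed (0.0% of all genes; 0 by DESeq2, again 0.0%, and 0 at an unadjusted p below 0.05, against 1.52%).

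**Figure D2:**
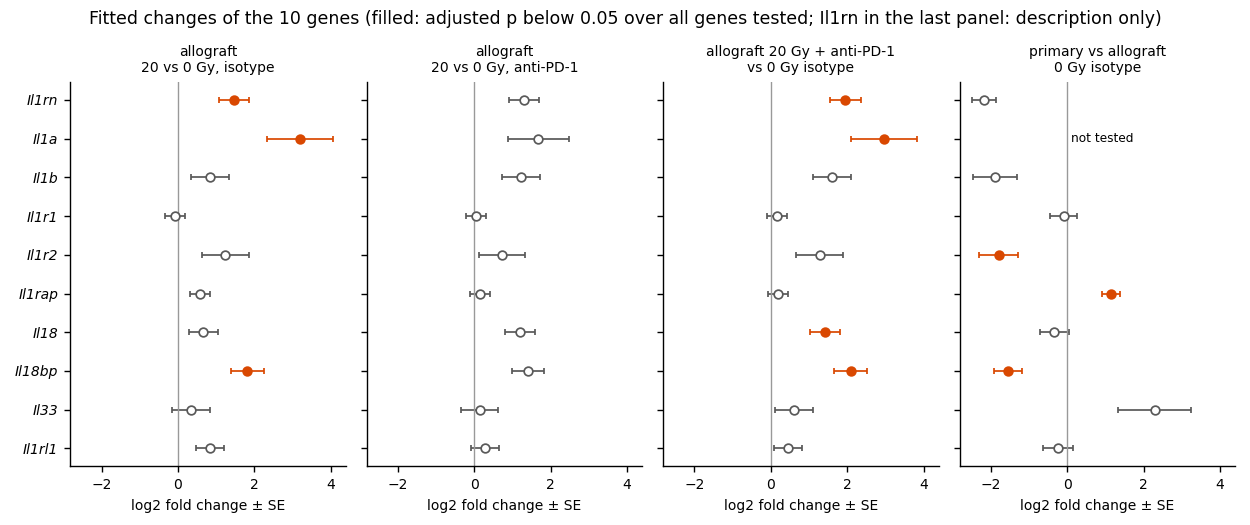
Fitted log2 fold change of each gene with its standard error (bars) in 3 allograft comparisons and in 0 Gy isotype primary tumours against 0 Gy isotype allografts. Filled points passed an adjusted p of 0.05; Il1rn in the comparison of tumour kinds is drawn open because it is a description. Il1rn and Il18bp lie between 1.29 and 2.09 in each of the 3 allograft comparisons and at -2.18 and -1.55 in the comparison of tumour kinds.

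Il1rn, the receptor antagonist, was at 28.7, 37.3, 60.1 and 24.9 CPM in the 0 Gy isotype allografts and at 115.4, 80.9, 97.7 and 116.9 CPM in the 20 Gy isotype allografts. The lowest irradiated tumour lay above the highest tumour that was not irradiated. The means were 37.8 ± 15.8 and 102.7 ± 17.0 CPM (SD, n = 4 each), and Il1rn rose by a log2 fold change of 1.47 (SE 0.39, adjusted p = 0.0433). With anti-PD-1 the 0 Gy tumours were at 92.2, 23.15, 90.9 and 35.6 CPM and the 20 Gy tumours at 150.8, 96.1, 167.8 and 167.0 CPM. Again the ranges did not meet, and the log2 fold change was 1.29 (SE 0.39, adjusted p = 0.0783). The combination stood above the 0 Gy isotype tumours by 1.95 (SE 0.40, adjusted p = 0.00684), which stayed past the threshold in all 16 alternatives tried (adjusted p 2.7e-05 to 0.0312). The isotype result passed in 6 of 16 alternatives (adjusted p 0.00578 to 0.159): leaving out any 1 tumour other than replicate 3 of the 0 Gy isotype group gave an adjusted p of 0.0567 to 0.159, with log2 fold changes between 1.299 and 1.79 over all 8 tumours left out in turn. In the anti-PD-1 arm, leaving out replicate 3 of the 0 Gy tumours gave 0.0460. In bulk tissue, fewer cells of a type and less RNA per cell cannot be told apart, and this holds for each gene below.

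The values that led to the choice of these genes were those of Il1rn in primary tumours. At 0 Gy the isotype group ran from 4.6 to 17.5 CPM with a median of 7.06 CPM, and at 20 Gy from 37.3 to 117.95 CPM with a median of 66.4 CPM. With anti-PD-1 the corresponding figures were 6.44 to 36.4 CPM (median 10.4) and 41.0 to 154.3 CPM (median 76.7). In neither arm did the 0 Gy and 20 Gy tumours overlap. The fitted log2 differences were 3.09 (SE 0.34) with isotype and 2.60 (SE 0.34) with anti-PD-1, and 3.29 (SE 0.35) for the combination against 0 Gy isotype. The excess of the primary over the allograft difference was 1.63 (SE 0.54) with isotype and 1.32 (SE 0.54) with anti-PD-1.

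Il1a, an IL-1 agonist that many cell types store as an active precursor, was the scarcest of the 10 transcripts. The 0 Gy isotype allografts held 0.429, 0.252, 0.180 and 0.112 CPM, from 5 to 18 counts each, and the 20 Gy isotype allografts 5.003, 1.21, 0.356 and 2.355 CPM, from 13 to 257 counts each. The weakest irradiated tumour fell inside the range of the controls. The log2 fold change was 3.20 (SE 0.87, adjusted p = 0.0449), a call that leaving out any 1 tumour other than replicate 3 of the 20 Gy isotype group removed (adjusted p 0.0551 to 0.160). In the combination group the values were 3.79, 1.16, 2.24 and 0.548 CPM, none of them within the control range, with a log2 fold change of 2.97 (SE 0.86, adjusted p = 0.0407) that was lost without any 1 tumour but replicate 4 of the combination group (0.0523 to 0.113). It was also lost with the identifier digit as a covariate (2.76, adjusted p = 0.0724), which was 5 in 3 of the 4 combination tumours, with Xist (3.15, adjusted p = 0.0566) and with all 48 tumours in 1 fit (2.98, adjusted p = 0.0711). Dose with anti-PD-1 gave 1.68 (SE 0.80, adjusted p = 0.267). Primary tumours at 0 Gy were at or below 0.704 CPM, and 1 had a count of 0. Their 20 Gy groups had medians of 1.15 CPM (isotype) and 1.465 CPM (anti-PD-1).

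Il1b, the agonist made mainly by myeloid cells, was at 53.1, 77.0, 52.3 and 36.6 CPM in 0 Gy isotype allografts and at 148.3, 79.6, 87.8 and 70.5 CPM after 20 Gy, with overlapping ranges and a log2 fold change of 0.84 (SE 0.49, adjusted p = 0.396). The combination tumours, at 142.9, 134.7, 264.0 and 123.1 CPM, all lay above the control range, and the log2 fold change of 1.60 (SE 0.50) had an adjusted p of 0.0561; DESeq2 gave 0.00977, and over 16 alternatives the adjusted p ran from 0.00977 to 0.338. Dose with anti-PD-1 gave 1.22 (SE 0.49, adjusted p = 0.182), where the 0 Gy tumours were spread from 12.5 to 136.4 CPM. Primary tumours were more variable still: 2.48 to 46.0 CPM (median 11.7) at 0 Gy isotype, 3.70 to 192.4 CPM (median 33.6) at 20 Gy isotype, 2.80 to 111.8 CPM (median 11.0) at 0 Gy anti-PD-1 and 18.7 to 73.4 CPM (median 53.2) at 20 Gy anti-PD-1. Those ranges overlap, and the fitted log2 differences were 1.83 (SE 0.67) with isotype and 1.01 (SE 0.66) with anti-PD-1. With single tumours left out, the first ranged from 1.15 to 2.38 and the second from 0.84 to 2.00.

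**Figure D3:**
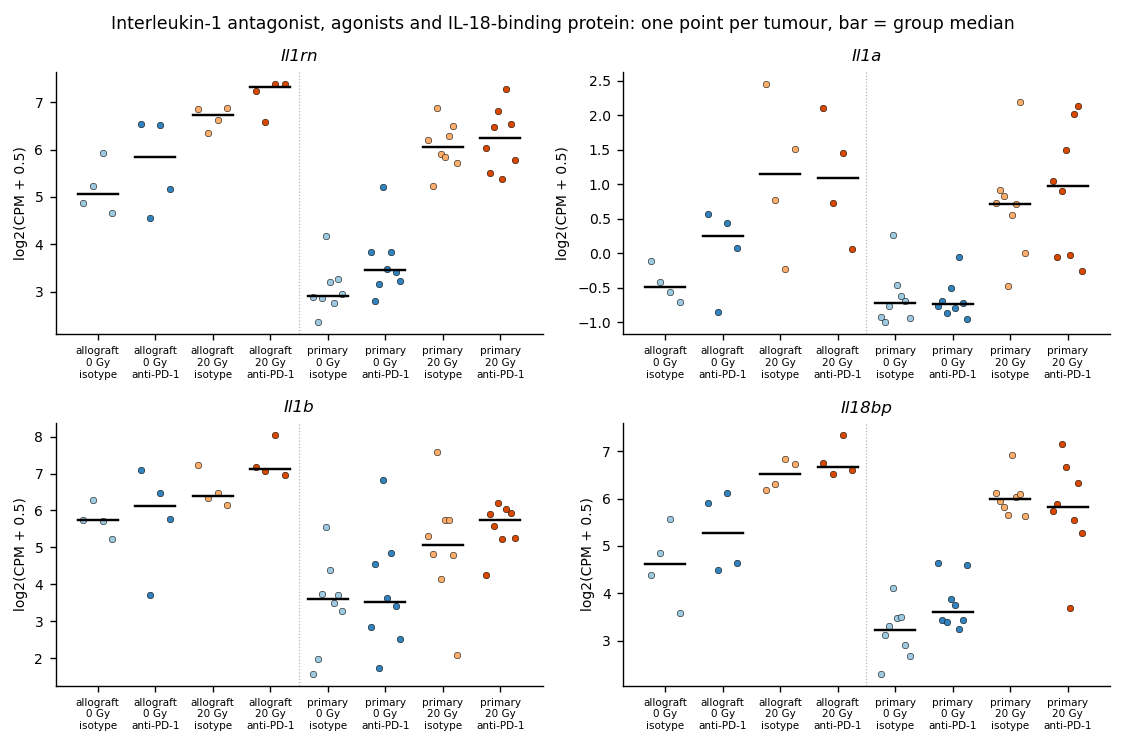
Level of Il1rn, Il1a, Il1b and Il18bp in each of the 48 tumours as log2(CPM + 0.5), by group, with a bar at each group median. In allografts the 20 Gy tumours lie above the 0 Gy tumours of the same antibody without overlap for Il1rn and Il18bp, whereas the groups overlap for Il1b and Il1a.

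The signalling receptor Il1r1 had the narrowest range of the 10 genes over the 16 allografts, a 2.33-fold span from 30.9 to 72.0 CPM, with group means from 43.1 to 51.7 CPM. Its log2 fold changes with dose were -0.07 (SE 0.26, isotype) and 0.05 (SE 0.26, anti-PD-1), and the first ranged from -0.24 to 0.07, the second from -0.19 to 0.23, when single tumours were left out. Primary tumours were wider, at 16.2 to 200.0 CPM, with group medians from 33.0 to 55.9 CPM. The highest value belonged to replicate 4 of the 0 Gy anti-PD-1 primary tumours.

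The decoy receptor Il1r2 was at 9.09, 25.1, 11.2 and 11.9 CPM in 0 Gy isotype allografts and at 11.1, 19.9, 70.1 and 30.1 CPM after 20 Gy. The ranges overlap, and the log2 fold change of 1.24 (SE 0.61) had an adjusted p of 0.307. Dose with anti-PD-1 gave 0.71 (SE 0.61, adjusted p = 0.566), and the combination gave 1.27 (SE 0.61, adjusted p = 0.220). In primary tumours the 0 Gy medians were 3.60 CPM (isotype) and 2.48 CPM (anti-PD-1), and the 20 Gy medians were 14.25 and 28.6 CPM. The highest primary values were 89.9 CPM in replicate 6 of the 20 Gy anti-PD-1 group and 85.6 CPM in replicate 3 of the 20 Gy isotype group. In these 2 tumours the summed level of 15 neutrophil markers was 1702 and 1016 CPM, where their groups had medians of 771.4 and 266.8 CPM. Other tumours went the other way: replicate 5 of the 20 Gy anti-PD-1 group had a sum of 2450 CPM with Il1r2 at 29.3 CPM, and replicate 1 of the 0 Gy isotype primary tumours had a sum of 2051 CPM with Il1r2 at 2.51 CPM. The part of these markers in the Il1r2 values was not tested.

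The accessory protein gene Il1rap, shared by the IL-1 and IL-33 receptors, was at 33.2, 36.8, 34.5 and 23.5 CPM in 0 Gy isotype allografts and at 56.8, 41.0, 35.6 and 54.2 CPM after 20 Gy, a log2 fold change of 0.57 (SE 0.26, adjusted p = 0.259). With anti-PD-1 it was 0.14 (SE 0.26, adjusted p = 0.812). In primary tumours the fitted difference with dose was -0.65 (SE 0.30) with isotype and 0.39 (SE 0.30) with anti-PD-1. The 20 Gy isotype primary tumours ranged from 28.0 to 73.2 CPM with a median of 44.5 CPM. The 20 Gy anti-PD-1 primary tumours fell apart: 5 of 8 were at 109.2 to 129.97 CPM, above each isotype tumour, and the other 3 at 16.6, 30.1 and 43.4 CPM. The lowest of these, replicate 4, is the library with the most muscle transcript (93617 CPM over 12 markers), and the part of muscle in this value was not tested.

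Il18, an interferon-γ-inducing cytokine, was at 9.26, 9.83, 7.115 and 11.05 CPM in 0 Gy isotype allografts and at 13.9, 12.5, 17.9 and 13.6 CPM after 20 Gy. The groups did not overlap, yet the log2 fold change of 0.66 (SE 0.38) had an adjusted p of 0.396. Over the 10 genes, 3 had irradiated isotype tumours that all lay above the controls (Il1rn, Il18 and Il18bp), against 9.03% of the 19327 genes compared, and 0 had them all below, against 4.49%. The combination tumours were at 11.25, 31.9, 42.1 and 14.7 CPM, and Il18 rose by 1.41 (SE 0.39, adjusted p = 0.0322). This call was lost without any 1 of the 4 control tumours or of replicates 2 and 3 of the combination group (adjusted p 0.0635 to 0.122), with the muscle markers as a covariate (1.32, adjusted p = 0.0541) and with only the 2 groups compared (1.47, adjusted p = 0.0678). Dose with anti-PD-1 gave 1.20 (SE 0.39, adjusted p = 0.0979), or 0.0431 without replicate 1 of the 20 Gy tumours. Primary tumours had medians of 5.94 CPM (0 Gy isotype), 13.3 CPM (20 Gy isotype), 7.55 CPM (0 Gy anti-PD-1) and 14.6 CPM (20 Gy anti-PD-1). In the anti-PD-1 arm the highest 0 Gy value, 8.77 CPM, lay below the lowest 20 Gy value, 9.76 CPM.

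Il18bp, which neutralises IL-18, was at 20.3, 28.45, 47.0 and 11.5 CPM in 0 Gy isotype allografts and at 72.4, 79.3, 113.15 and 106.04 CPM after 20 Gy. The groups did not overlap, with means of 26.8 ± 15.1 and 92.7 ± 19.9 CPM (SD, n = 4 each), and Il18bp rose by a log2 fold change of 1.82 (SE 0.42, adjusted p = 0.0226). The call was lost without replicate 1, 2 or 4 of the 0 Gy or replicate 3 or 4 of the 20 Gy isotype tumours (adjusted p 0.0623 to 0.0820). With anti-PD-1 the 0 Gy tumours were at 59.5, 22.1, 68.5 and 24.4 CPM and the 20 Gy tumours at 107.2, 91.4, 162.2 and 96.7 CPM, also without overlap, with a log2 fold change of 1.41 (SE 0.42, adjusted p = 0.0736; 0.0405 without replicate 3 of the 0 Gy tumours). Il18bp and Il1rn were the 2 genes without overlap in this arm with the irradiated tumours higher, against 5.63% of all genes, and 0 had them lower, against 3.24%. The combination stood 2.09 (SE 0.43, adjusted p = 0.00677) above the control and was called in all 16 alternatives (adjusted p 2.2e-05 to 0.0307). In primary tumours the isotype groups ran from 4.43 to 16.8 CPM at 0 Gy and from 49.1 to 120.2 CPM at 20 Gy, without overlap, and the fitted difference was 2.89 (SE 0.35). With anti-PD-1 it was 2.22 (SE 0.34), and replicate 5 of the 20 Gy group (12.4 CPM) fell within the 0 Gy range of 8.92 to 24.6 CPM.

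Il33, the alarmin, was at 18.1, 21.7, 29.2 and 11.5 CPM in 0 Gy isotype allografts and at 12.5, 24.3, 39.1 and 23.65 CPM after 20 Gy, with a log2 fold change of 0.34 (SE 0.49, adjusted p = 0.786). Dose with anti-PD-1 gave 0.14 (SE 0.49), which ranged from -0.19 to 0.50 when single tumours were left out. It had the widest range among primary tumours of the 9 genes without a count of 0, where it spanned 3.70 to 638.6 CPM, a 172.8-fold range, against a 7.06-fold range among allografts. The highest values were 638.6 and 413.5 CPM in replicates 5 and 6 of the 20 Gy anti-PD-1 group and 415.8 CPM in replicate 3 of the 20 Gy isotype group. In these 3 tumours the summed neutrophil markers were 2450, 1702 and 1016 CPM, the highest sums of their groups, while replicate 1 of the 0 Gy isotype primary tumours, with 2051 CPM, had Il33 at 71.3 CPM; the part of those cells in the Il33 values was not tested. The fitted differences with dose in primary tumours were 0.21 (SE 0.72, isotype) and 1.26 (SE 0.73, anti-PD-1). With single tumours left out, the first ranged from -0.47 to 0.58 and the second from 0.58 to 1.46.

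Il1rl1, the IL-33 receptor gene, was at 722.1, 1068, 919.3 and 501.2 CPM in 0 Gy isotype allografts and at 1899, 896.3, 1263 and 1580 CPM after 20 Gy. One irradiated tumour fell among the controls, and the log2 fold change was 0.84 (SE 0.37, adjusted p = 0.245). Dose with anti-PD-1 gave 0.28 (SE 0.37, adjusted p = 0.726). Il1rl1 yields a membrane and a soluble decoy form, which counts per gene do not separate. Mast cells are known to express this gene, and 11 mast cell markers summed to medians of 137.2 CPM in 0 Gy and 58.1 CPM in 20 Gy isotype allografts, where Il1rl1 had medians of 820.7 and 1421 CPM; their part in the Il1rl1 values was not tested. Primary tumours ranged from 152.8 to 2148 CPM, with group medians from 526.5 to 786.4 CPM.

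**Figure D4:**
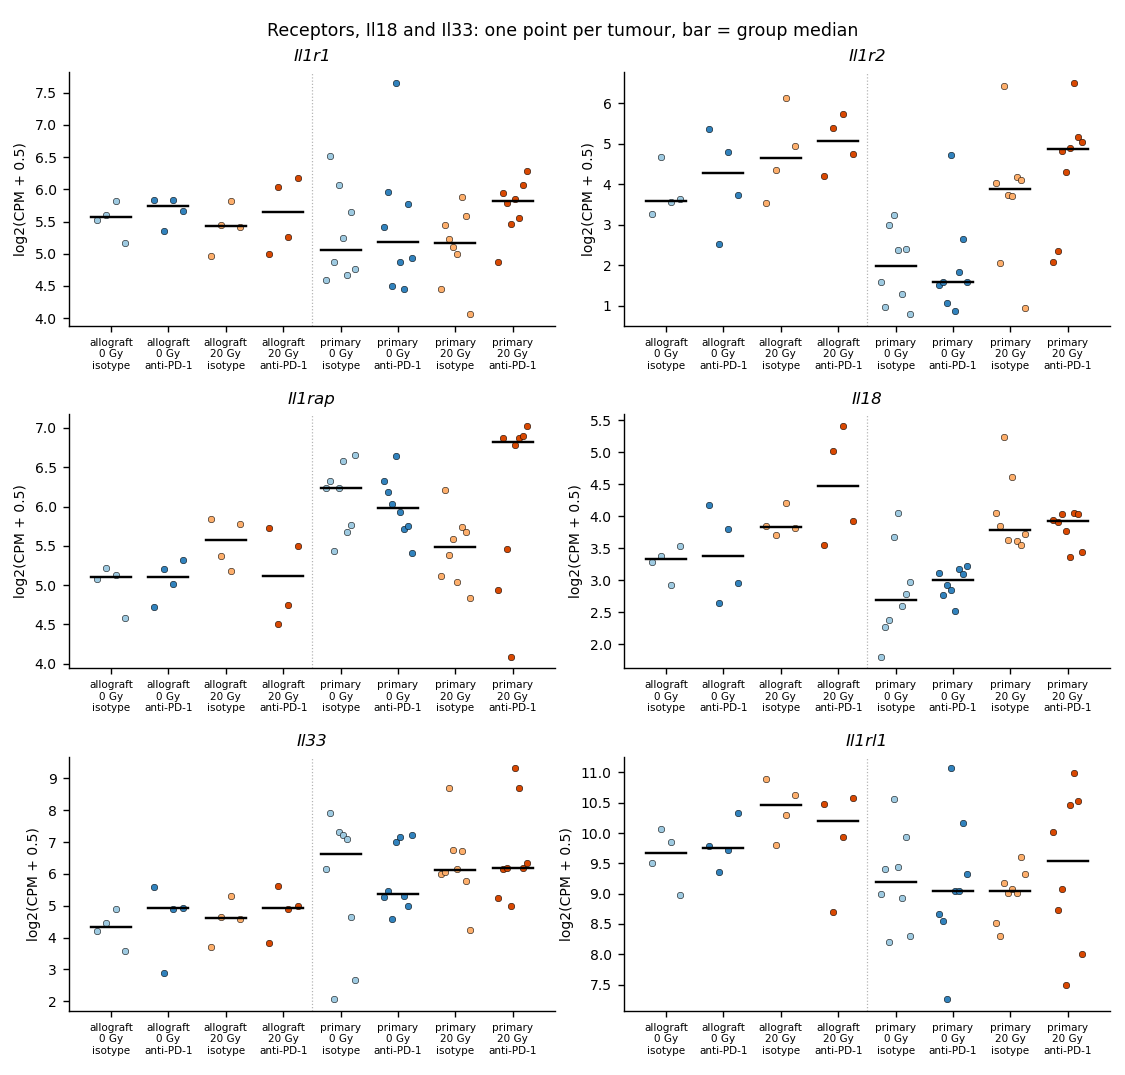
Level of Il1r1, Il1r2, Il1rap, Il18, Il33 and Il1rl1 in each of the 48 tumours as log2(CPM + 0.5), by group, with a bar at each group median. Il1r1 medians stay within 33.0 to 55.9 CPM, Il33 spreads over 172.8-fold among primary tumours, and Il1rap is split in the 20 Gy anti-PD-1 primary group.

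For the combination in allografts, 5 of the 10 genes (Il1rn, Il1a, Il1b, Il18 and Il18bp) had treated tumours that all lay above the control tumours (4 of 9 without Il1a), against 8.5% of the 19327 genes compared, and 0 had them all below, against 4.8%. In the primary tumours, where the choice of genes used these contrasts and nothing is read from the counts, 5 of 10 were called higher and 0 lower with isotype (of the 17770 genes tested, 14.5% were called, 7.85% higher and 6.64% lower), likewise with anti-PD-1 (7.92%, 6.06% higher and 1.86% lower) and for the combination (13.8%, 8.78% higher and 4.98% lower). In each of the 3 these were Il1rn, Il1a, Il1r2, Il18 and Il18bp. Groups that did not overlap numbered 2 of 10 with isotype (Il1rn and Il18bp; 1.45% of genes), 2 of 10 with anti-PD-1 (Il1rn and Il18; 0.279%) and 1 of 10 for the combination (Il1rn; 0.347%).

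Between anti-PD-1 and isotype, none of these genes passed the test in 2 allograft or 2 primary tumour comparisons. In allografts at 0 Gy and at 20 Gy, edgeR called 0 of 10 (0.0% of all genes in each), as did DESeq2 (0.0%), with 0 of 10 at an unadjusted p below 0.05 in both (1.68% and 3.84% of all genes). In primary tumours, leaving Il1rn aside because the choice of genes used its values there, edgeR called 0 of 9 at 0 Gy and at 20 Gy (0.0% of all genes in each) and DESeq2 0 of 9 in each (0.0169% and 0.0281%). At an unadjusted p below 0.05 there were 0 of 9 at 0 Gy, against 2.32% of all genes, and 1 of 9 at 20 Gy, against 8.12%. That gene was Il1rap at 20 Gy, with a log2 fold change of 0.92 (SE 0.30, adjusted p = 0.560). Groups that did not overlap numbered 0 of 10 in the 4 comparisons; in irradiated allografts the shares of all genes were 0.973% higher and 0.59% lower, in allografts at 0 Gy 0.362% and 0.383%, in primary tumours at 0 Gy 0.00517% and 0.0%, and in primary tumours at 20 Gy 0.00517% and 0.0103%. Il18 in irradiated allografts was at 13.9, 12.5, 17.9 and 13.6 CPM with isotype and at 11.25, 31.9, 42.1 and 14.7 CPM with anti-PD-1, a log2 difference of 0.75 (SE 0.38, adjusted p = 0.682). The difference in the radiation response between tumour kinds, described only, had, leaving Il1rn aside, 0 of 9 genes past edgeR's threshold with isotype (0.00517% of all genes) and 0 of 9 with anti-PD-1 (0.0%). At an unadjusted p below 0.05 there were 1 of 9 with isotype (9.9% of all genes) and 0 of 9 with anti-PD-1 (4.77%), and DESeq2 called 0 in both (0.0259% and 0.0155%).

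In 0 Gy isotype tumours, primary sarcomas had lower Il1r2 and Il18bp and higher Il1rap than allografts, so that, leaving Il1rn aside, 3 of the 8 genes tested were called, against 10.0% of 17357 genes (6.03% higher and 3.99% lower); Il1a did not pass the filter on low counts here. Il1rn is described without a test, because the choice of genes used its level in these primary tumours. Il1rn was at 37.8 ± 15.8 CPM in allografts (SD, n = 4) and 8.40 ± 3.96 CPM in primary tumours (SD, n = 8), a fitted log2 difference of -2.18 (SE 0.31). Il1rap was at 32.01 ± 5.87 and 71.4 ± 20.96 CPM, without overlap, a difference of 1.15 (SE 0.22, adjusted p = 0.00797). Leaving Il1rn aside, the groups did not meet for Il1r2, which was lower in primary tumours (as were 2.87% of all genes), and Il1rap, which was higher (4.36%). Il18bp was lower by a log2 value of -1.55 (SE 0.36, adjusted p = 0.0183), which was lost without replicate 2 or 3 of the allografts (0.0578 and 0.0744). Il1r2 had -1.80 (SE 0.51, adjusted p = 0.0408), which passed in 7 of 18 alternatives. This call was lost without any 1 tumour but replicates 3 and 4 of the primary group (0.0517 to 0.170). It was also lost with all 48 tumours in 1 fit (-1.80, SE 0.75, adjusted p = 0.116). Il1b had -1.90 (SE 0.57, adjusted p = 0.0536), and -2.41 (adjusted p = 0.00663) without replicate 4 of the primary tumours (0.00663 to 0.154 over 18 alternatives). Il33 had medians of 19.9 CPM in allografts and 103.6 CPM in primary tumours, with primary values from 3.70 to 242.4 CPM and a difference of 2.28 (SE 0.95, adjusted p = 0.146). Cell markers differed between the same tumours: 5 of 13 tested neutrophil markers and 6 of 10 T cell markers were lower in primary tumours, and 4 of 11 mesenchymal markers were higher. The summed T cell markers had medians of 91.5 CPM in allografts and 32.8 CPM in primary tumours, whereas the summed neutrophil markers had medians of 197.6 and 239.9 CPM, the other way from the 5 markers called, with ranges of 162.4 to 443.9 CPM and 120.02 to 2051 CPM. Their part in the differences was not tested. The identifier's first digit was 5 in 4 of 4 of these allografts and 4 in 8 of 8 of these primary tumours. Tumour kind, the way tumours were made and the identifier digit thus cannot be told apart.

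Ratios between partner genes were followed in each tumour, as differences of log2(CPM + 0.5); because they are not corrected for length, a ratio is compared between groups and not read as a ratio of molecules. Il18bp to Il18 had a mean log2 ratio of 1.32 ± 1.07 in 0 Gy isotype and 2.62 ± 0.23 in 20 Gy isotype allografts (SD, n = 4 each), and of 1.90 ± 0.28 and 2.33 ± 0.75 with anti-PD-1. In primary tumours it was 0.37 ± 0.57 and 2.00 ± 0.60 with isotype and 0.84 ± 0.53 and 1.97 ± 0.87 with anti-PD-1 (SD, n = 8 each). Il1r2 to Il1r1 moved from -1.75 ± 0.65 to -0.67 ± 0.77 in isotype allografts and from -3.34 ± 1.07 to -1.45 ± 1.45 in isotype primary tumours. Il1rn to Il1b was -0.56 ± 0.55 and 0.14 ± 0.45 in isotype allografts and -0.41 ± 0.88 and 1.05 ± 1.33 in isotype primary tumours, while with anti-PD-1 the allograft means were -0.06 ± 0.68 and -0.155 ± 0.50. Il1rl1 to Il33 had group means of 5.09 to 5.85 in allografts and 2.70 to 3.58 in primary tumours. In each of these comparisons of 20 Gy with 0 Gy the groups overlapped, and no test was made of the ratios.

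**Figure D5:**
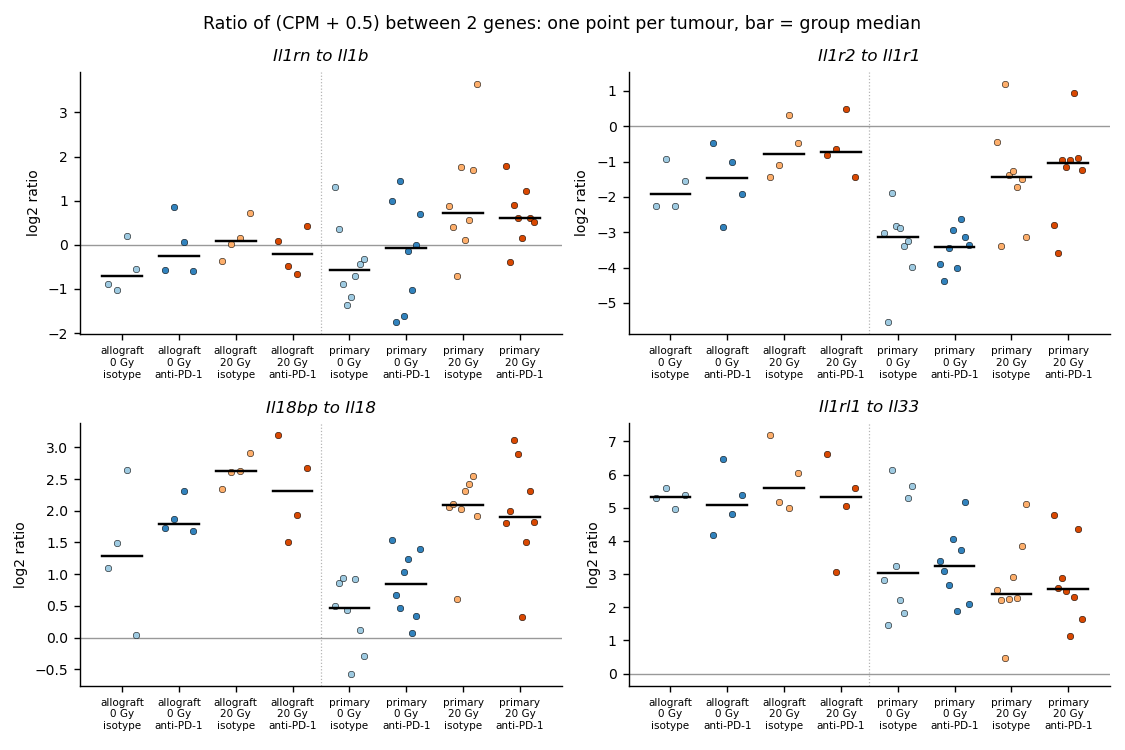
Log2 ratio of (CPM + 0.5) between 4 pairs of genes in each of the 48 tumours, by group, with a bar at each group median and a line at 0. The mean Il18bp to Il18 ratio was 1.32 in 0 Gy and 2.62 in 20 Gy isotype allografts, with overlapping ranges.

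The genes that act with these ligands were read from lists of known members in the allografts, where the share of all genes called higher was 4.4% with isotype. Of 14 genes that sense damage or process IL-1β and IL-18, 8 rose and 0 fell after 20 Gy with isotype, led by Nlrp3 (log2 fold change 1.298, SE 0.25), the inflammasome sensor, Casp4 (1.22, SE 0.25) and Gsdmd (0.67, SE 0.14), which encodes the pore that releases the cytokines. With anti-PD-1, 6 of 14 rose, led by Casp4 (1.56, SE 0.25), Aim2 (1.42, SE 0.26) and Nlrc4 (1.36, SE 0.27), against 3.13% of all genes called higher; the combination called 9 of 14, led by Casp4 (1.99, SE 0.25), Casp1 (2.02, SE 0.30) and Gsdmd (0.86, SE 0.14). Of 16 genes that carry the signal from the receptor, 4 rose with isotype, led by the adaptor Myd88 (0.99, SE 0.17), the ubiquitin ligase gene Peli1 (0.76, SE 0.14) and Irak3 (1.41, SE 0.34), a negative regulator. The corresponding counts were 3 of 16 with anti-PD-1 and 5 of 16 for the combination. Of 23 tested genes among 24 NF-κB components and IL-1 response genes, 6 rose with isotype, led by Icam1 (1.59, SE 0.23), Nfkbia (0.75, SE 0.12) and Mmp13 (3.67, SE 0.82). With anti-PD-1 3 rose, led by Nfkbia (0.58, SE 0.12), Zc3h12a (0.82, SE 0.17) and Icam1 (1.01, SE 0.23), and the combination called 9. In the combination 7.43% of all genes were called higher. None of these list genes fell in the 3 comparisons. The list counts are from the fit without covariates.

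Of 11 further family genes, 5 passed the filter in allografts: Il36g, Il18r1, Il18rap, Il1rl2 and Sigirr. In edgeR's test 0 of these 5 were called with isotype (0 at an unadjusted p below 0.05, against 18.2% of all genes) and 0 with anti-PD-1 (1 at an unadjusted p below 0.05, against 19.5%). In the combination, where 7.43% of all genes were called higher, 1 of 5 was, Il36g (annotated as Il1f9), an agonist of the IL-36 receptor that is also 1 of the 15 neutrophil markers used here, with a log2 fold change of 2.57 (SE 0.77, adjusted p = 0.0470). Il36a, Il36b, Il36rn and Il1f10 had 0 counts in 42, 47, 46 and 45 of the 48 tumours. The receptor subunit genes Il18r1 and Il18rap had medians of 3.82 and 20.5 CPM over the 48 tumours. Between the 0 Gy isotype groups of the tumour kinds, 1 of these 5 was called lower in primary tumours and 0 higher, against 3.99% and 6.03% of all genes. It was Sigirr, an inhibitory receptor of the family (-1.35, SE 0.22, adjusted p = 0.00277), and Il18rap had -1.10 (SE 0.37, adjusted p = 0.0762).

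Marker lists of other cell types were read in the same allografts, where 4.4% of all genes were called higher with isotype, 3.13% with anti-PD-1 and 7.43% in the combination. The summed level of 14 monocyte and macrophage markers ranged from 3111 to 3737 CPM in 0 Gy isotype and from 4718 to 6880 CPM in 20 Gy isotype allografts, and from 2276 to 5466 CPM and 4664 to 11053 CPM with anti-PD-1. Of the 14, 3 rose with isotype (Cd68, Ly6c2 and Fcgr1), 3 with anti-PD-1 and 8 in the combination, and 0 markers of the list were at 0 throughout. The summed level of 15 neutrophil markers ranged from 162.4 to 443.9 CPM and from 241.4 to 612.1 CPM with isotype. Of 14 tested markers, 0 were higher and 1 was lower (Ngp) with isotype, where 0.744% of all genes were called lower. In the combination 3 were higher. The 10 markers of natural killer and innate lymphoid cells summed to 22.1 to 37.3 CPM and 23.4 to 44.0 CPM with isotype, with 2 of 8 tested markers higher. The part of these cells in the changes of Il1rn, Il1a, Il18 and Il18bp, and of the processing, signalling and NF-κB list genes, was not tested.

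The genes whose level followed each member most closely were found over the 48 tumours after the mean of each group had been subtracted. The tumours share their libraries' depth and mixture of cells, so these correlations (Pearson's r, with Spearman's rho) are a description, with no p. Il18bp followed H2-T23 (r = 0.908, rho = 0.867), Cd274 (0.900, 0.836), which encodes PD-L1, and Calhm6 (0.898, 0.896), and these were the closest matches found for a member. Il1r2 followed Tnfsf14 (0.872, 0.782) and Cxcr2 (0.860, 0.803), the neutrophil chemokine receptor. Il1rn followed Srgn (0.813, 0.789), Rab20 (0.787, 0.749) and Ccl4 (0.762, 0.662), and Il1b followed Rab20 too (0.809, 0.799), with Ppp1r3b (0.792, 0.707) and Mcemp1 (0.770, 0.635). Il1a followed Ccl5 (0.713, 0.723), Cxcl11 (0.667, 0.690) and Olfr110 (0.664, 0.549). Over the 48 tumours Il1a and Olfr110 had medians of 0.479 and 0.0741 CPM. Both lie below the pseudocount of 0.5 CPM, so these correlations are of values near the floor. Il33 followed the metallothioneins Mt1 (0.753, 0.718) and Mt2 (0.724, 0.649), then Adora2b (0.661, 0.634). Il1rl1 followed Timp1 (0.745, 0.690), Ptgs2os2 (0.721, 0.645) and Ccdc137 (0.704, 0.632). Il1rap followed Adamts7 (0.745, 0.738), Spry4 (0.736, 0.705) and A830082K12Rik (0.717, 0.606), Il1r1 followed Vav3 (0.714, 0.631), Mmp19 (0.703, 0.641) and Gramd1b (0.680, 0.639), and Il18 followed Pts (0.767, 0.720), Plgrkt (0.722, 0.674) and Washc3 (0.722, 0.689). Between members, Il1b and Il1r2 were the closest pair by r (r = 0.694, rho = 0.532), followed by Il1rn with Il1b (0.647, 0.557) and with Il1r2 (0.646, 0.588). By rho the closest pair was Il1rn with Il1a (r = 0.538, rho = 0.611). Il1rap and Il18bp had the lowest r (-0.300), and Il1rap and Il18 the lowest rho (-0.283). The order depends on the tumours used. In the allografts alone, Il1rn with Il18bp had the highest r (0.859) and Il1rap with Il18 the lowest (-0.802).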

How the data were processed

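RNA of 48 mouse sarcomas (16 allografts, 32 primary tumours) was sequenced with a stranded poly(A) kit, per the labels' protocols. The authors deposited whole-number read counts per gene; Trimmomatic 0.36, STAR, HTSeq and the mm10 build are named in the submitters' processing notes, while the annotation, the strand setting and the counting options are not given in the sources used here. Gene identifiers were named with GENCODE M21 (36796 of 36854 matched), and promoter sequences came from RefSeq's GRCm38.p6 table.

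From the counts, edgeR 4.0.16 (R 4.3.3) was run with TMM scaling, filterByExpr by group and the quasi-likelihood test, over the 4 groups of each tumour kind (17746 genes in allografts, 17770 in primary tumours), over the 0 Gy isotype tumours of both kinds (17357) or over all 48 (19327). P-values were adjusted over all genes tested by Benjamini-Hochberg, with a threshold of 0.05. Libraries held 31810461 to 54008259 counts, and the biological coefficient of variation was 0.375 in allografts and 0.4995 in primary tumours. Ratios used a pseudocount of 0.5 CPM. DESeq2 1.42.0, other scaling, no filter, covariates (muscle markers, Xist, the first digit of the animal identifier), other sets of samples and leaving out each tumour in turn (76 refits) were alternatives. The edgeR fits were tested on simulated counts, with changes put into a single contrast of each fit.

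The genes, the lists and the rule for naming others were chosen with earlier results of these data known. The 10 genes were all named; from each pathway list the 3 called genes with the smallest p were named for each allograft comparison, and for likeness the 3 genes with the highest correlation, of which 1 is not reported here. Tumours were grouped by the labels; replicate numbers follow accession order and name tumours only.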

Additional observations from a re-analysis of the deposited data

Results flagged for a closer look

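For each of the 10 genes and 8 groups, the highest and lowest tumour was compared with the rest by Dixon's gap test at 95%. Of 80 such checks 15 stood out, each with 1 tumour above the others: 1 of 40 in allografts and 14 of 40 in primary tumours. The critical values give about 1 in 20 for normally spread values, but in these CPM values, which were not log-transformed, 12.4% of all checks over the genes that passed the filter stood out, from 6.1% to 10.4% in the 4 allograft groups and from 14.1% to 21.3% in the 4 primary groups. The 15 are 18.8% of the checks on the 10 genes, and several come from the same tumours. Replicate 4 of the 0 Gy anti-PD-1 primary tumours stood apart for 4 genes: Il1rn at 36.4 CPM (next 13.8), Il1b at 111.8 CPM (next 28.4), Il1r1 at 200.0 CPM (next 61.4) and Il1r2 at 25.7 CPM (next 5.75). Replicate 4 of the 0 Gy isotype primary tumours stood apart for Il1rn at 17.5 CPM (next 9.19), Il1a at 0.704 CPM (next 0.230) and Il1b at 46.0 CPM (next 20.4).

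Replicate 3 of the 20 Gy isotype primary tumours was apart for Il1b at 192.4 CPM (next 53.5), Il1r2 at 85.6 CPM (next 17.5) and Il33 at 415.8 CPM (next 108.1). In the same group, replicate 7 had Il1a at 4.07 CPM (next 1.38) and replicate 5 had Il18bp at 120.2 CPM (next 68.8). Replicate 6 of the 20 Gy anti-PD-1 primary tumours had Il1r2 at 89.9 CPM (next 35.5), and replicate 6 of the 0 Gy anti-PD-1 primary tumours had Il1a at 0.468 CPM (next 0.208). The allograft case was Il1b in replicate 3 of the 20 Gy anti-PD-1 group, at 264.0 CPM (next 142.9).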

How the results depend on the processing

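No paired analysis was possible because the labels give no replicate numbers shared between groups; each tumour has an identifier of its own. In isotype allografts the 3 genes called higher with 20 Gy became 0 with the first digit of the animal identifier as a covariate, which was 5 in 4 of 4 tumours at 0 Gy and 1 of 4 at 20 Gy, 1 with Xist as a covariate and 1 with all 48 tumours in 1 fit. The log2 fold changes of the lost calls had larger errors: they were 1.72, 2.80 and 2.07 for Il1rn, Il1a and Il18bp with the digit, and 1.64 and 3.43 for Il1rn and Il1a with Xist, against 1.47, 3.20 and 1.82. With anti-PD-1 the count of 0 became 3 under DESeq2, and the primary count with anti-PD-1 fell from 5 to 3 with the identifier digit. Leaving out each tumour in turn gave 0 to 2 called genes in isotype allografts, 0 to 2 with anti-PD-1, 2 to 4 for the combination, 2 to 5 for 0 Gy isotype primary tumours against allografts (Il1rn included) and 3 to 5 for primary tumours with anti-PD-1.

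Small differences changed sign. Il1r1 in isotype allografts was 0.26 with the identifier digit, and Il1rap in anti-PD-1 allografts was -0.0356 with Xist. With single tumours left out, Il1r1 ran from -0.2406 to 0.0663 (isotype allografts), from -0.19 to 0.23 (anti-PD-1), from -0.0726 to 0.3459 (combination) and from -0.3457 to 0.0002 (0 Gy isotype primary tumours against allografts). Il1rap ran from -0.0749 to 0.3055 (anti-PD-1) and from -0.024 to 0.3817 (combination), and Il33 from -0.19 to 0.50 (anti-PD-1). In primary tumours Il33 ran from -0.4661 to 0.5817 (isotype), and Il1r1 from -0.3618 to 0.0153 (isotype) and from -0.19 to 0.5583 (anti-PD-1). The causes were not tested. The count over all genes, and with it the background share, moved too. It was 912 in isotype allografts and ran from 196 (identifier digit) to 1530 (DESeq2), with 294 to 1415 when single tumours were left out. With anti-PD-1 it was 703, from 1 (only the 2 groups compared) to 1664 (DESeq2), with 184 to 1275 for single tumours. For the combination it was 1714, from 851 (all 48 tumours in 1 fit) to 2626 (DESeq2), and between 0 Gy isotype tumour kinds 1738, from 732 (without replicate 2 of the allografts) to 2868 (DESeq2). In primary tumours it was 2575 with isotype (1706 without replicate 5 of the 20 Gy group to 3532 with all 48 tumours), 1407 with anti-PD-1 (822 with only the 2 groups compared to 2188 by DESeq2) and 2446 for the combination (1384 with only the 2 groups compared to 3636 with all 48 tumours). No ratio moved by more than its spread. The identifier digit could not be fitted for 0 Gy isotype primary tumours against allografts, because there it coincided with tumour kind. Leaving out primary tumours in the contrast of tumour kind and dose was not run. Groups of 4 limit the precision of the allograft results, and Il1a rests on few counts at 0 Gy.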
